A study of Rattus norvegicus with 16 samples.

Results

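Crym, Dio1, Thra, Thrb, Ttr and Serpina7 are 6 genes whose products bind, carry, activate or read thyroid hormone, and they were examined in the liver of adult rats on 16 arrays with 2 colours. They were taken by gene name from the 26913 names on the array. Of the 6 genes, 5 had a probe there, with 1 probe each, and 4 (Crym, Dio1, Thra and Ttr) were among the 11082 features tested. The rats were adult male Sprague-Dawley offspring, 78 to 86 days old. In group C the dams received corn oil alone and reared their own litters, and in CC litters of such dams were fostered to other control dams. In group M the dams received, at 1.0 mg/kg/day in corn oil, a mixture of organochlorine pesticides, PCBs (polychlorinated biphenyls) and methylmercury, and in MM litters born to dams on that dose were fostered to other dams on it. One label field of the M arrays calls them controls, whereas title and treatment give exposure, and exposure was used. Dosing of the dams ran from gestation day 0 to postnatal day 20, so the offspring were examined long after it had ended. Each group had 8 pups, pooled in pairs, so each array stands for 2 rats and n = 4 pools per group. The labels do not give the litter of a pool.

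Thyroid hormone leaves the thyroid mostly as the prohormone thyroxine and is carried in blood by the proteins transthyretin, thyroxine-binding globulin and albumin, all made in the liver. Membrane transporters admit it to cells, the deiodinases remove iodine to make or destroy the active hormone triiodothyronine (T3), and T3 acts through nuclear receptors that sit on DNA as partners of retinoid X receptors. Liver also clears the hormone by attaching glucuronic acid or sulphate. PCBs and their hydroxylated products are known to disturb thyroid hormone levels in rats, which is the reason for looking at these genes here.

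Every array carried liver cRNA in Cy5 and a universal reference RNA from 14 rat cell lines in Cy3, without a dye swap. Values below are log2 of liver over reference unless a channel is named, and channel levels are log2 signals. Slide 1 held C and CC and slide 2 held M and MM, so exposure and slide cannot be told apart. Within each slide the arrays lay in 2 rows of 4, and every group had 2 pools in each row. Median liver signals were 83.5 to 91 in row 1 and 79 to 93 in row 2, and 42.8% to 46.3% and 39.3% to 47.8% of spots were well above background. All 14 hepatocyte markers were well above background on all 16 arrays. Of 7 thyroid markers and 6 choroid plexus markers (the choroid plexus is the other main source of transthyretin), 6 and 5 were well above background on none. The remaining thyroid marker, Foxe1, and choroid plexus marker, Aqp1, were well above background on all 16 arrays.

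Crym encodes mu-crystallin, a cytosolic protein that binds T3. It was well above background in both channels on all 16 arrays, with liver signals of 426 to 3255 scanner units over a background of 65 to 72. In C, the log2 ratios of replicates 9 to 12 were 3.72, 4.97, 5.37 and 4.65. In CC, replicates 1 to 4 gave 3.29, 4.67, 4.66 and 4.97. These ranges overlapped, and fostering of control litters was not followed by a called change (CC minus C -0.28 ± 0.56, SE, adjusted p = 1). In M, replicates 5 to 8 gave 3.31, 2.69, 5.35 and 5.13. In MM, replicates 1 to 4 gave 4.14, 3.98, 5.38 and 4.81. All 4 groups overlapped, and in M the pools fell into a low pair and a high pair. Exposed minus control was -0.19 ± 0.39 (95% interval -1.02 to 0.65, adjusted p = 0.846), so a change of up to about 1 log2 unit downward lies within the interval.

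The low pools of Crym were row 1 pools. In row 1 the log2 ratio was 3.85 ± 0.75 (SD, n = 8, 2.69 to 4.97), and in row 2 it was 5.04 ± 0.31 (SD, n = 8, 4.65 to 5.38). The rows overlapped only through C replicate 10 and CC replicate 2, the highest row 1 pools. With group means in the model, row 2 exceeded row 1 by 1.19 ± 0.26 in the log ratio (adjusted p = 0.00171) and by 1.37 ± 0.30 in the liver channel (adjusted p = 0.00176), which is 2.59-fold. In the reference channel, which holds the same RNA on every array, the difference was 0.10 ± 0.05 (adjusted p = 0.316). A row difference was common over the array: of all features, 42.6% were called in the log ratio, 45.7% for liver and 0.929% for the reference, and features higher in row 2 were 20% of all in the log ratio and 22.4% in the liver channel. The call itself therefore does not set Crym apart, but in size its row difference ranked 1 of 11082 in the liver channel and 4 in the log ratio.

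**Figure D1:**
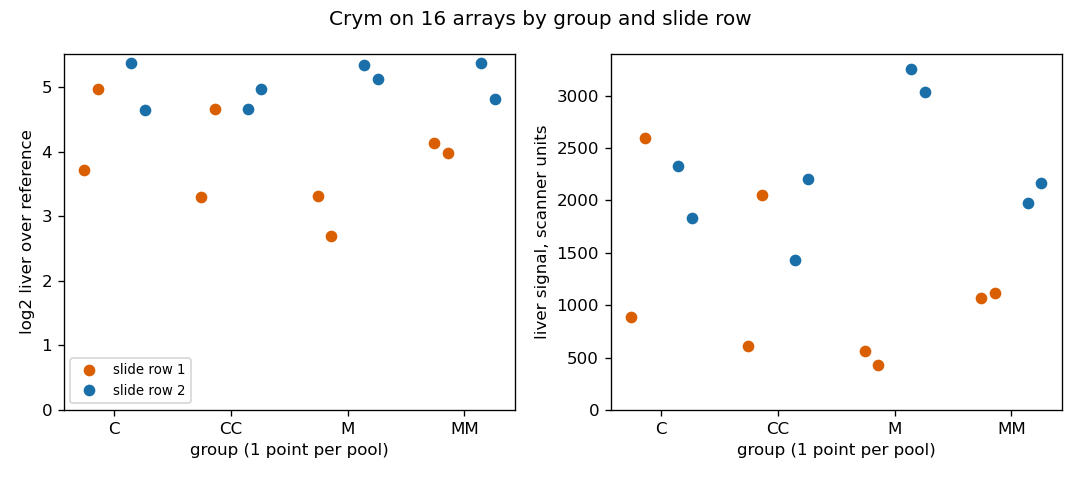
Crym by group (x axis, 1 point per pool of 2 rats) as log2 liver over reference on the left and as raw liver signal in scanner units on the right; colour gives the slide row. Row 1 pools ran from 426 to 2593 units and row 2 pools from 1435 to 3255, and the lowest signals were those of M replicates 5 and 6.

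The estimated row difference was larger within slide 2 than within slide 1, and it varied with how the ratio was made. Within slide 1 (C and CC) the log ratio differed by 0.75 ± 0.34 (adjusted p = 0.16), and within slide 2 (M and MM) by 1.64 ± 0.25 (adjusted p = 0.00262), and the difference between slides was not tested. The authors' deposited values gave 1.27 ± 0.27 for both slides (adjusted p = 0.00153), while the log ratio of the scanner software gave 0.40 ± 0.20 (adjusted p = 0.568). With that scanner log ratio limma called 0 of the 11082 features between rows, 998 having an unadjusted p under 0.05, against 4718 called in the loess ratio. In those scanner ratios row 1 pools ran from 3.96 to 5.64 and row 2 pools from 5.08 to 5.85. Within row 1, M minus C was -1.34 ± 0.49 (adjusted p = 0.197), and within row 2 it was 0.23 ± 0.27 (adjusted p = 0.799). Exposed minus control was -0.63 ± 0.35 and 0.25 ± 0.19 in these rows (adjusted p = 0.293 and 0.548). Both turned direction with the row, with 2 pools per group in each and no call. MM minus CC did not turn, being 0.08 ± 0.49 within row 1 and 0.28 ± 0.27 within row 2 (adjusted p = 0.958 and 0.738). Summed hepatocyte marker signal was 893745 to 952263 in row 1 and 861827 to 955476 in row 2, and the ranges overlapped. The marker sums were taken after quantile normalization of the liver channel, which limits how far sums of the brightest genes can differ. Overlap of the hepatocyte sums therefore does not show equal hepatocyte content. In the liver channel, where 45.7% of all features were called for row, 2 of 14 hepatocyte markers were called, both lower in row 2. Of 6 erythroid markers 5 were below 0 and 3 of them called lower, with sums of 23002 to 82675 in row 1 and 27265 to 60342 in row 2. Markers called were 3 of 8 for stellate cells (1 higher, 2 lower), 2 of 9 for Kupffer cells and 2 of 5 for sinusoidal endothelium (1 in each direction), and none of 4 for cholangiocytes. In every group the lower replicate numbers lay in row 1 and the higher ones in row 2, each pool on a single array. Array position and the animals of a pool therefore cannot be told apart here. The part of these cells in the row difference of Crym was not tested.

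**Figure D2:**
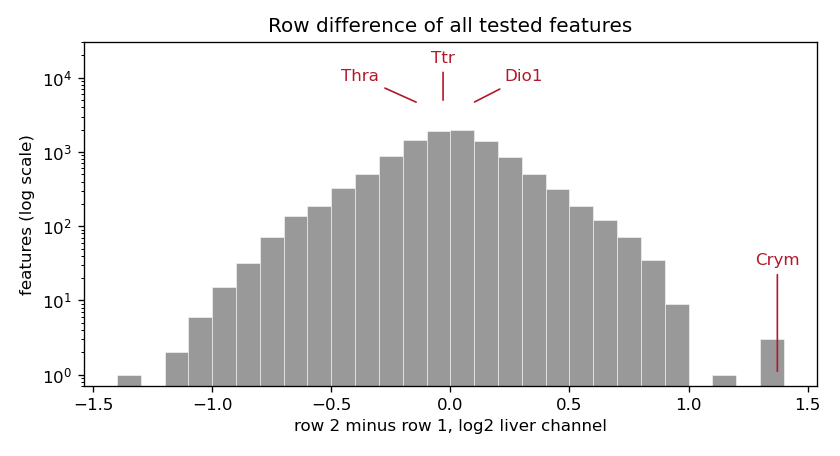
Row 2 minus row 1 in the log2 liver channel (x axis) for all 11082 tested features, with the number of features on a log scale (y axis) and the 4 tested genes marked. Crym lies at the right end at 1.37, while Thra at -0.13, Ttr at -0.03 and Dio1 at 0.09 lie in the bulk.

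Crym was also among the genes that differed most between pools of the same group. Its standard deviation within groups was 1.03 in the liver channel, against a median of 0.17 over features, and ranked 11 of 11076. With row means also removed it was 0.62 and ranked 48. In the reference channel the standard deviation of Crym within groups was 0.12, against a median of 0.05 over features, and ranked 984. The array holds a single Crym spot, and probes of like brightness with 2 spots had a median standard deviation between spots of 0.23 (1634 probes). Over the 16 arrays, after slide means were removed, the liver channel patterns most like that of Crym were those of Gpld1 (r = 0.953), which encodes a phospholipase secreted by the liver, Cnpy2 (r = 0.951), and Nr2f6 (r = 0.942), which encodes an orphan nuclear receptor. With the means of each row of each slide removed, r was 0.872, 0.953 and 0.852. Their own row differences were 0.82, 0.31 and 0.39, all called and all smaller than that of Crym. These are descriptions over 16 arrays that share rows and slides.

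Dio1 encodes the type 1 deiodinase, a selenoenzyme of liver and kidney that T3 itself induces. All 16 arrays detected it well above background in liver, between 151 and 341 scanner units. The reference was well above background on only 8 arrays, 2 on slide 1 and 6 on slide 2, and on none of the C arrays, so the ratio in C is limited by the background of the reference. The log2 ratios were 2.68, 3.18, 2.78 and 2.90 in C (replicates 9 to 12), and 2.73, 3.02, 2.42 and 3.12 in CC (replicates 1 to 4). Those of M (replicates 5 to 8) were 2.73, 2.55, 2.79 and 3.20, and those of MM (replicates 1 to 4) were 2.61, 2.73, 1.85 and 2.68. All groups overlapped, and MM replicate 3 lay lowest. In the liver channel exposed minus control was 0.01 ± 0.07 (95% interval -0.14 to 0.16, adjusted p = 0.985), and row 2 minus row 1 was 0.09 ± 0.07 (adjusted p = 0.295). The log ratio gave -0.21 ± 0.14 for exposed minus control (adjusted p = 0.429). The scanner's own log ratio gave -0.84 (adjusted p = 0.0327), called lower. The reference level of Dio1 was 0.05 ± 0.03 higher on slide 2 (adjusted p = 0.211), and 0.23 ± 0.03 higher with 75th percentile scaling (adjusted p = 1.24e-06), and the part of this difference in the scanner call was not tested. The 2 spots of the Dio1 probe differed by up to 0.93 in the liver channel.

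Thra encodes thyroid hormone receptor alpha, the receptor that prevails in heart and brain, and it was the single gene of the 4 with a called exposure difference in the log ratio. In C (replicates 9 to 12) the log2 ratios were -0.82, -0.72, -0.69 and -0.74, and in CC (replicates 1 to 4) -0.63, -0.64, -0.70 and -0.85. In M (replicates 5 to 8) they were -0.27, -0.21, -0.37 and -0.61, and in MM (replicates 1 to 4) -0.46, -0.40, -0.47 and -0.53. Every exposed pool lay above every control pool, and the share of all features separating in this way was not counted. M minus C was 0.37 ± 0.09 (adjusted p = 0.0262), where 4.11% of all features were called, and exposed minus control was 0.31 ± 0.06 (adjusted p = 0.00601), where 9.39% were called. MM minus CC was 0.24 ± 0.09 (adjusted p = 0.285, 0.893% called).

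With the channels apart, Thra was called between slides in the reference channel and not in the liver channel. The reference level was 8.43 to 8.53 on slide 1 and 8.07 to 8.18 on slide 2, which did not overlap, a difference of -0.35 ± 0.02 (adjusted p = 8.1e-10). In that channel 61.6% of all features were called between slides, although the RNA is the same. The liver level was 6.29 to 6.51 on slide 1 and 6.17 to 6.61 on slide 2, overlapping throughout, and exposed minus control was 0.01 ± 0.06 (95% interval -0.12 to 0.13, adjusted p = 0.988), a difference whose sign turned to -0.01 under Aquantile normalization between arrays. The liver signal was also close to background, being well above it on 12 of 16 arrays, 3 in C, 2 in CC, 4 in M and 3 in MM. All 8 row 1 arrays passed but only 4 of 8 in row 2, and row 2 was lower by -0.13 ± 0.05 in the liver channel (adjusted p = 0.0301), a call lost with 75th percentile scaling (-0.08, adjusted p = 0.297) and on leaving out any 1 of 7 arrays (C replicates 10 and 11, CC replicate 4, M replicates 6 and 8, MM replicates 2 and 3, adjusted p up to 0.0619). The call of M minus C in the log ratio was lost on leaving out C replicate 9, 10 or 12 or M replicate 5 or 6 (adjusted p up to 0.0914).

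**Figure D3:**
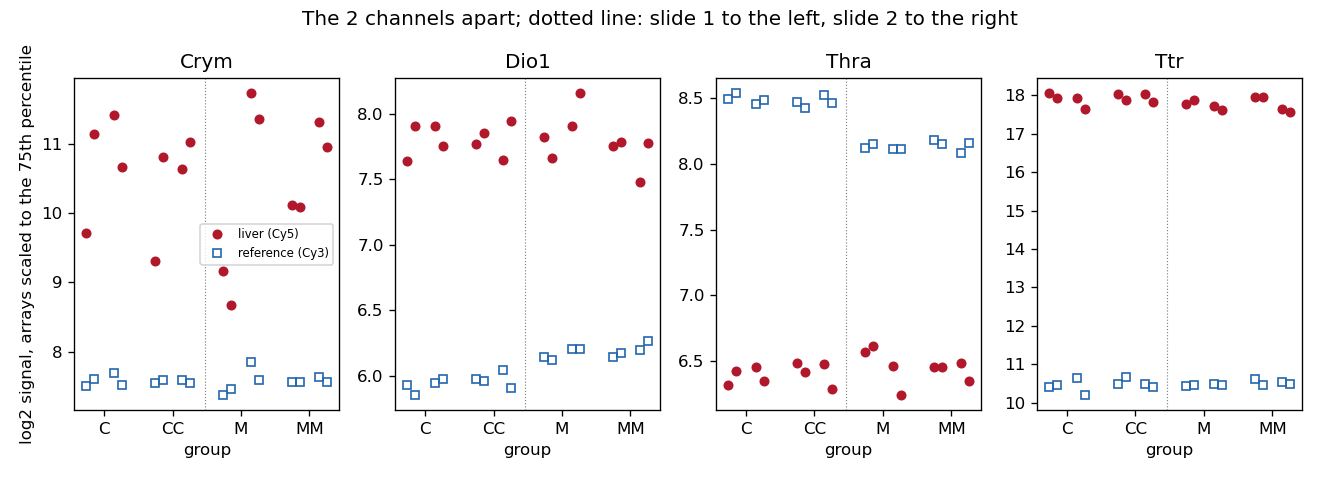
Log2 signal of liver (filled) and reference (open squares) for the 4 tested genes, each array scaled to its 75th percentile, by group (x axis), with slide 1 left and slide 2 right of the dotted line. The reference of Thra steps down between slides, by -0.35 on this scaling, while its liver signal does not. Crym spreads far more widely in liver than in the reference.

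Thrb encodes thyroid hormone receptor beta, known as the main T3 receptor of liver. Its single probe was not well above background in liver on any of the 16 arrays and in the reference on 1 (CC replicate 4), so no ratio or difference is given. Liver signals of the probe were 69 to 84.25 scanner units. This describes the probe and sets no level for the receptor.

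Ttr encodes transthyretin and gave 1 of the 3 brightest liver signals on every array, 156219 to 286349 scanner units without saturation. The log2 ratios were 8.50, 8.40, 8.73 and 8.42 in C (replicates 9 to 12), and 8.61, 8.13, 8.76 and 8.30 in CC (replicates 1 to 4). In M (replicates 5 to 8) they were 8.31, 8.20, 8.24 and 8.02, and in MM (replicates 1 to 4) 8.33, 8.27, 8.52 and 7.97. All M pools lay below all C pools, while MM and CC overlapped. The share of all features whose pools separate in this way was not counted. In M minus C, which is also slide 2 against slide 1, 1922 of 11082 features had an unadjusted p under 0.05 in limma. M minus C was -0.32 ± 0.14 and exposed minus control -0.25 ± 0.10, and neither passed the test over all features (adjusted p = 0.249 and 0.137). Ttr is 1 of the 14 hepatocyte markers, of which 13 were below 0 for exposed minus control in the log ratio (median -0.25, 4 called lower), and in the liver channel 10 were (median -0.04, none called). All 6 erythroid markers were below 0 in both (median -0.43 and -0.25, none called). Of all features, 9.39% were called for exposed minus control in the log ratio, 627 of 11082 lower, and 1.62% in the liver channel. Summed erythroid signal was 48003 to 60342 in C, 28642 to 48594 in CC, 23002 to 37612 in M and 29608 to 82675 in MM. Summed hepatocyte signal was 925347 to 943759 in C, 929031 to 955476 in CC, 890821 to 952263 in M and 861827 to 912988 in MM. These sums too were taken after quantile normalization, which limits how far sums of the brightest genes can differ. The part of these lists in the difference of Ttr was not tested. Quantile normalization left the liver channel with only 3 distinct values over the arrays, 17.74, 17.80 and 17.89, so it carries little information for this gene. With each array scaled to its 75th percentile the liver channel gave -0.15 ± 0.08 for exposed minus control (adjusted p = 0.543) and -0.19 ± 0.06 for row 2 minus row 1 (adjusted p = 0.0259), the latter called lower. Serpina7, which encodes thyroxine-binding globulin, had no matched probe and was not analysed here.

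Of the 4 tested genes, none was called for CC minus C, MM minus M or the interaction in limma, where 0% of all features were called in each and 106, 195 and 182 features had an unadjusted p under 0.05. The interaction, (MM minus M) minus (CC minus C), was 0.74 ± 0.79 for Crym, -0.29 ± 0.29 for Dio1, -0.13 ± 0.13 for Thra and 0.14 ± 0.20 for Ttr. In the liver channel none of the 4 was called for exposed minus control, where 1.62% of features were, nor for M minus C (0.00902%) or MM minus CC (0.0361%). In the reference channel 1 of the 4, Thra, was called for M minus C (48.5% of all features) and for MM minus CC (45.4%).

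**Figure D4:**
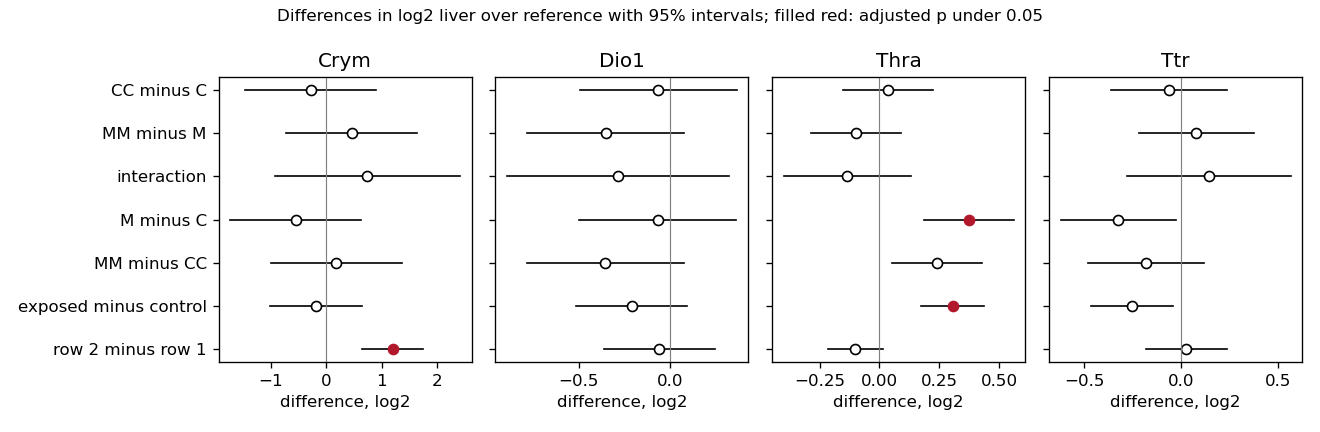
Differences in log2 liver over reference (x axis, scaled separately for each gene) with 95% intervals for 6 contrasts between groups and for slide row. Filled points mark an adjusted p under 0.05, which are row 2 minus row 1 of Crym (1.19) and M minus C (0.37) and exposed minus control (0.31) of Thra.

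Genes of the same pathway were read from lists chosen with earlier results of these data known. In the liver channel, exposed minus control called 1.62% of all features. It called 1 of 21 measured genes of the T3-raised list, with a list median of 0.10 against -0.01 over all features. It called none of 8 for cell entry, 6 for deiodination (with Dio1), 8 for conjugation, 9 for receptors and cofactors (with Thra) and 2 for serum carriers. The called gene was Klf9, a transcription factor gene induced by T3 and also by glucocorticoids. Its liver level was 9.01 to 9.30 in C, 9.34 to 9.90 in CC, 9.52 to 10.26 in M and 9.87 to 10.18 in MM, so C lay below all exposed pools while CC overlapped them. The difference was 0.57 ± 0.10 (adjusted p = 0.0125). The call was lost with 75th percentile scaling (0.52, adjusted p = 0.117) and within row 1 (0.55, adjusted p = 0.118) and row 2 (0.59, adjusted p = 0.175) alone. In the reference channel Klf9 differed by 0.22 ± 0.04 (adjusted p = 0.000194), and in the log ratio by 0.27 ± 0.11 (adjusted p = 0.14).

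In the log ratio, 3 of the 21 T3-raised genes were called lower in exposed pools, where 9.39% of all features were called and 627 of 11082 were called lower, with a list median of -0.02 against -0.03 over all features. Among them were Apoa1, which encodes the main protein of high-density lipoprotein (-0.32, adjusted p = 0.0354), and G6pc1, which encodes glucose-6-phosphatase (-0.37, adjusted p = 0.0209). Their liver channel differences were -0.06 and -0.39, neither of them called. The call of Apoa1 was lost on leaving out any 1 of 11 arrays (adjusted p up to 0.0753), and in the authors' value table (-0.27, adjusted p = 0.0876). Slc10a1, a bile acid transporter gene whose product can also carry thyroid hormones, was called lower in the log ratio (-0.27, adjusted p = 0.0186), as was the sulphotransferase gene Sult1c3 (-0.66, adjusted p = 0.0318), a call lost without any 1 of 7 arrays (adjusted p up to 0.0676). In the liver channel Slc10a1 and Sult1c3 differed by -0.0023 and 0.02. Apoa1 is also a hepatocyte marker, and the medians of that list are those given with Ttr. Of these 4 named log ratio calls, none was kept with median centring of the arrays, where the differences were smaller (Apoa1 -0.21, G6pc1 -0.30, Slc10a1 -0.18 and Sult1c3 -0.53, adjusted p = 0.125 to 0.48). Within row 2 alone, with fewer arrays, Apoa1 (-0.39) and Sult1c3 (-0.76) differed by more, G6pc1 (-0.27) and Slc10a1 (-0.13) by less, and none was called (adjusted p = 0.0517 to 0.436). Slc10a1 was also not called in the authors' value table (-0.13, adjusted p = 0.312) or with the scanner log ratio (-0.36, adjusted p = 0.0543), nor G6pc1 with the mean of its probes (-0.43, adjusted p = 0.0622).

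The remaining genes with the smallest p in each list did not pass for exposed minus control in the liver channel. Among them the largest differences were 0.25 ± 0.09 for the sulphotransferase gene Sult1a1 (adjusted p = 0.186), 0.20 ± 0.06 for the cytochrome b5 gene Cyb5a (adjusted p = 0.153) and -0.19 ± 0.08 for Iyd (adjusted p = 0.322), whose enzyme recovers iodide. Alb, the albumin gene, differed by -0.11 ± 0.05 (adjusted p = 0.349). The others named by the rule, none called, ran from -0.18 to 0.14. Below 0 were Gps2 (-0.18) and Rxra (-0.17) of the receptor list, Eefsec (-0.14) and the transporter subunit gene Slc3a2 (-0.11). Above 0 were Nrgn (0.14), Ugt2b1 (0.14), Ugt1a6 (0.12, but -0.018 for its other probe), Sepsecs (0.12), Slco1a1 (0.10) and the coactivator gene Ncoa2 (0.07). No list had a called interaction in the log ratio. In the T3-raised list Klf9 was among the genes with the smallest p of the interaction (-0.47 ± 0.22, adjusted p of 1). In the other lists, all with an adjusted p of 1, such genes were Sult1c2a (0.64) and Sult1c2 (0.18), Secisbp2 (0.22) and Eefsec (0.13), Slco1a1 (-0.20) and Slc7a8 (0.19), Rxrg (-0.36), and Alb (0.16).

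More of these genes were called for slide row than for exposure, as over the array, though not with the scanner log ratio. In the liver channel 7 of 9 receptor and cofactor genes were called, 2 higher and 5 lower in row 2, against 45.7% of all features. The retinoid X receptor genes moved in different directions, with Rxrb higher by 0.39 ± 0.05 (adjusted p = 4.9e-05), Rxra lower by -0.39 ± 0.07 (adjusted p = 0.000282) and Rxrg lower by -0.25 ± 0.08 (adjusted p = 0.0236). Gps2 and Tbl1x, which encode subunits of a corepressor complex, were lower by -0.52 and -0.54. Tbl1x had 2 probes, and the one listed first on the array gave -0.06 (adjusted p = 0.417). The call of Rxrg was lost without C replicate 9, C replicate 11 or M replicate 8 (adjusted p up to 0.0538).

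Among the cell entry genes, 2 of 8 were called for row in the liver channel, where 45.7% of all features were called. Both encode organic anion transporters that accept thyroid hormones. Slco1b2 was lower in row 2 by -0.82 ± 0.13 (adjusted p = 0.000138), and Slco1a4 was higher by 0.70 ± 0.20 (adjusted p = 0.0111). Of 8 conjugation genes 4 were called, Sult1c2a higher (0.83) and Sult1c3 (-0.29), Ugt2b1 (-0.61) and Ugt1a6 (-0.34) lower. The 2 probes of Ugt1a6 disagreed, since the other one was called higher in row 2 (0.40, adjusted p = 0.0105). Of 6 deiodination genes 2 were called higher, Secisbp2 (0.37) and Eefsec (0.16), whose products insert selenocysteine into deiodinases. Of 21 T3-raised genes 2 were called higher, Atp1b1 (0.37), a sodium pump subunit gene, and Cpt1a (0.45), which encodes the entry enzyme of mitochondrial fatty acid oxidation. Calls of Eefsec, Atp1b1 and Cpt1a were lost on leaving out any 1 of 4, 7 and 1 arrays, the last being CC replicate 1 (adjusted p up to 0.0559, 0.0715 and 0.0505). They were lost too with 75th percentile scaling (0.10, 0.27 and 0.37, adjusted p = 0.324, 0.104 and 0.0925). Of the 15 liver channel row calls named for these lists, 8 were kept within slide 1 alone and 11 within slide 2 alone.

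In the log ratio, where 42.6% of all features were called for row, 17 genes of these lists are named as called. Of 9 receptor and cofactor genes 2 were higher in row 2, Rxrb (0.39) among them, and 4 were lower, Rxra (-0.59), Rxrg (-0.49), Tbl1x (-0.48) and Gps2 (-0.42). Of 8 conjugation genes Sult1c2a was higher (0.86), and Ugt2b1 (-0.70), Sult1c3 (-0.58), Sult1a1 (-0.46) and Ugt1a6 (-0.32) were lower. Of 8 cell entry genes Slco1a4 was higher (0.57) and Slco1b2 lower (-0.97). Of 6 deiodination genes Secisbp2 was higher (0.22) and Iyd lower (-0.34). Of 21 T3-raised genes Thrsp, a lipogenic gene (-0.24), and Cyb5a (-0.18) were lower, and of 2 serum carriers Alb was higher (0.26). None of the 17 calls was kept with the scanner log ratio. Slco1b2 (-0.98) and Sult1c3 (-0.45) differed there by about as much as in the loess ratio (adjusted p = 0.292 and 0.265), while 5 (Alb, Cyb5a, Rxrg, Secisbp2 and Ugt2b1) turned direction. Calls of Iyd, Cyb5a and Secisbp2 were lost on leaving out any 1 of 11, 8 and 2 arrays, the last being CC replicate 1 and MM replicate 1 (adjusted p up to 0.10, 0.0741 and 0.0522).

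**Figure D5:**
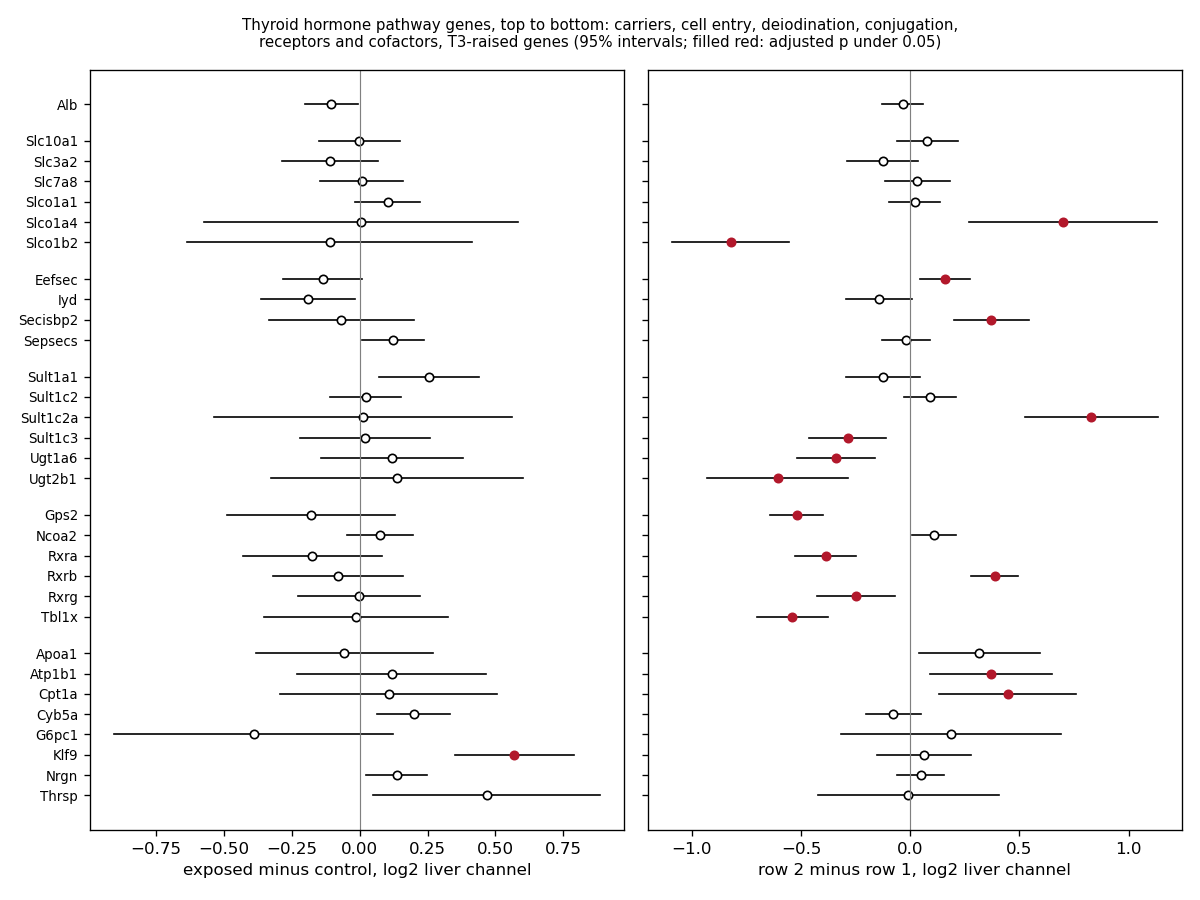
Differences in the log2 liver channel (x axes) with 95% intervals for the pathway genes chosen by rule, exposed minus control on the left and row 2 minus row 1 on the right. Filled points mark an adjusted p under 0.05; on the left this is Klf9 (0.57) alone, and on the right the largest are Sult1c2a (0.83) and Slco1b2 (-0.82).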

How the data were processed

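Scanner files were deposited for each array. Per the file headers they give the median intensity of every spot and its background in Cy5 and Cy3 (Agilent Feature Extraction, version 11.0.1.1, array design 028279). The headers also name a deposited log10 ratio, the processed Cy5 over Cy3 signal. The authors' deposited value table holds log2 ratios of liver over reference, as judged against loess ratios made here without background subtraction (r = 0.989 to 0.995). Its centring (array medians -0.038 to -0.027) and making are not given in the sources used here. Intensities were corrected by normexp (offset 50) and loess in limma 3.58.1 under R 4.3.3, and channels were quantile normalized apart. Probes were named through RefSeq accessions (18005 of 30367), taking the brightest per name, and kept if well above background in liver on at least 3 of 4 arrays of a group. Group means over 16 arrays were fitted (lmFit, eBayes), with row added for row tests, and Benjamini-Hochberg adjustment ran over all 11082 features at 0.05. The code was tested on simulated data. Members, lists and tests were chosen with earlier results of these data known. Pathway genes were named if called, or among the 3 lowest p (exposure, liver channel) or 2 lowest p (interaction) of a list; 4 genes that met these rules are not reported here by name, for reasons unrelated to their values, and list counts include them. CC and MM share replicate numbers 1 to 4, and same-number arrays correlated at 0.554, 0.155, 0.581 and 0.19 in their deviations from group means. CC replicate 2 correlated more with MM replicate 1 (0.232). Same-number arrays also share a row, so these correlations cannot show that the numbers are pairs. The numbers were taken as pairs only in the replicate block for MM minus CC. Row tests in single channels, within slides and within rows were chosen after seeing the data. P-values measure the spread between pools, and in the reference channel the spread between arrays that carried the same RNA. Since each exposure lay on a single slide, p-values of the exposure contrasts include no spread between slides of the same exposure. Each row was present on 2 slides only, with 4 arrays in each slide row. The p-values of the row tests treat arrays that share a slide row as independent.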

Additional observations from a re-analysis of the deposited data

Results flagged for a closer look

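In 48 sets of 4 pools, each a gene, a group and a quantity, 5 pools stood apart from the other pools of their group. Chance alone gives about 1 in 20 for sets without tied values, and the 3 Ttr sets below hold ties. Sets of the same gene and group reuse the same pools and are not independent. The log ratio of Dio1 in MM replicate 3 was 1.85, below the 3 other MM pools. That array had the lowest median liver signal of all arrays (79) and the lowest share of liver spots well above background (39.3%). The part of this in the Dio1 value was not tested. The reference level of Dio1 in CC replicate 4 was 5.95, where the reference was not well above background. For Ttr the liver levels were 17.89 in CC replicate 3, 17.80 in C replicate 12 and 17.80 in MM replicate 4, each set against 3 identical values, since quantile normalization left this gene 3 distinct values.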

How the results depend on the processing

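Counts of called genes among the 4 tested moved as follows. For row in the liver channel (2 in the main setting) the count was 1 with Aquantile, 1 on requiring liver detection on all 16 arrays, 0 within slide 1, 1 within slide 2 and 1 to 2 on leaving out single arrays. For row in the log ratio (1) it was 0 with the scanner log ratio and 0 within slide 1. For M minus C in the log ratio (1) it was 0 with the scanner log ratio, 0 on requiring all 16 arrays, where Thra is no longer tested, 0 within row 2 and 0 to 1 on leaving out single arrays. For exposed minus control in the log ratio (1) it was 0 on requiring all 16 arrays and 0 within row 2, and with the scanner log ratio the call passed from Thra (0.37, adjusted p = 0.172) to Dio1 (-0.84, adjusted p = 0.0327). For MM minus CC (0) it was 1 with median centring, that gene being Thra (0.42, adjusted p = 0.0215). For exposed minus control in the reference channel (1) it was 2 with 75th percentile scaling, 3 with Aquantile, 0 on requiring all 16 arrays, 2 within row 1 and 1 to 2 on leaving out single arrays, 2 being the count without C replicate 11 or M replicate 7. The cause was not tested. The replicate block for MM minus CC, pairing by number, left 0 of the 4 genes called (Thra 0.24, adjusted p = 0.181) and changed no other call among them, while it called 133 features over the array, and row as a block raised M minus C from 456 to 1174 features, MM minus CC from 99 to 418 and exposed minus control from 1041 to 2086.

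Directions turned for values that were not called, apart from row differences of Ugt1a6 and of 5 log ratio calls. Within row 2, Crym gave 0.44 (liver channel), 0.25 (log ratio) and 0.042 (reference) for exposed minus control, 0.23 for M minus C and -0.14 for MM minus M; Dio1 gave 0.15 for M minus C; Thra gave -0.030 (liver channel, exposed), -0.062 for CC minus C and 0.053 for the interaction; and in the liver channel, exposed minus control, G6pc1 gave 0.23 and Slc10a1 0.16. Within row 1, Apoa1 gave 0.23 and Ttr 0.023 (liver channel, exposed), and Dio1 0.027 for MM minus M and 0.087 for the interaction. With the scanner log ratio Dio1 gave 0.18 for MM minus M and 0.61 for the interaction, Thra -0.11 for CC minus C, and Ttr 0.043 for CC minus C and -0.13 for row. For Ttr, the authors' table gave 0.0021 for CC minus C and -0.044 for row, median centring -0.065 for MM minus M and -0.19 for row, slide 2 alone -0.090 and slide 1 alone 0 in the liver channel. With Aquantile, exposed minus control was 0.031 for Crym in the reference, and -0.043 for Dio1, -0.013 for Thra and -0.034 for Sult1c3 in the liver channel, and row was -0.0035 for Dio1; with 75th percentile scaling Dio1 gave -0.0093 and Sult1c3 -0.042. Row for Ugt1a6 was 0.40 with its other probe and 0.027 with the mean of its probes in the liver channel, 0.34 and 0.013 in the log ratio, and its exposed minus control in the liver channel was -0.018 with the other probe. With the scanner log ratio, row was -0.28 for Alb, 0.12 for Cyb5a, 0.11 for Rxrg, -0.018 for Secisbp2 and 0.017 for Ugt2b1, none called, and the interaction of Alb was -0.041. Within row 1 the interaction was -0.10 for Alb, -0.12 for Slc7a8 and -0.056 for Sult1c2. Of 15 liver channel and 17 log ratio row calls of other pathway genes named in the text, 75th percentile scaling kept 12 of the 15, and median centring 12 of the 17. On leaving out single arrays, exposed minus control in the liver channel ran from -0.38 to 0.15 for Crym, -0.023 to 0.047 for Dio1, -0.014 to 0.038 for Thra, -0.022 to 0.0040 for Ttr, -0.17 to 0.034 for Apoa1, -0.039 to 0.036 for Slc10a1 and -0.032 to 0.095 for Sult1c3. In the log ratio it ran for Crym from -0.39 to 0.049 (exposed), -0.60 to 0.087 (CC minus C), -0.19 to 0.38 (MM minus CC) and -0.017 to 0.87 (MM minus M); for Dio1 from -0.16 to 0.067 (CC minus C), -0.20 to 0.030 (M minus C) and -0.14 to 0.046 (row); for Ttr from -0.17 to 0.043 (CC minus C), -0.0038 to 0.18 (MM minus M) and -0.028 to 0.085 (row), and from -0.078 to 0.0027 for row in the reference channel.

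Signal over background limits Thra in liver, Dio1 in the reference and Thrb in both, and Crym rests on 1 spot. The 95% interval of the exposure difference of Crym in the log ratio was -1.02 to 0.65, and with slide row as a block its SE fell from 0.39 to 0.26.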
